A study of Mus musculus with 18 samples.

Results

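The genes described here are 10 genes of hepatic iron handling, Hamp, Bmp6, Hfe, Tfr2, Tfrc, Trf, Slc39a14, Slc40a1, Fth1 and Ftl1, which were named for their roles in iron uptake, iron storage and the hepcidin pathway. They are 10 of the 55487 genes in the count table, and all 10 passed the filter on low counts in every comparison. Livers came from male C57BL/6J mice, bought at 7 weeks of age, that all received an adeno-associated virus of serotype 8 with the hepatocyte promoter TBG, carrying either GFP or the human LIPA gene, 1 week before a 16-week diet. CON-GFP mice received the GFP virus and a purified control diet, FPC-GFP mice the GFP virus and the fructose, palmitate and cholesterol (FPC) diet with fructose-glucose water, and FPC-LIPA mice the LIPA virus and the FPC diet with the same water, with 6 mice and 1 library per mouse in each group and a 4 h fast before collection. LIPA encodes lysosomal acid lipase, which hydrolyses cholesteryl esters and triacylglycerols in lysosomes, and the TBG promoter drives it in hepatocytes. The study asked what the FPC diet does to the liver and whether the enzyme changes that response.

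Iron in the body is controlled mainly by hepcidin, a peptide hormone that hepatocytes make from Hamp. Hepcidin binds ferroportin, the iron exporter encoded by Slc40a1, and causes its degradation, so that less iron leaves macrophages, hepatocytes and the gut. Sinusoidal endothelial cells report iron stores to hepatocytes through BMP6, which acts on SMAD proteins at the Hamp promoter, and HFE and transferrin receptor 2 report circulating iron, while inflammation acts on Hamp through interleukin-6 and STAT3. Inside cells, iron regulatory proteins bind hairpins called iron-responsive elements when iron is low, which blocks translation of messages with the hairpin in the 5′ UTR and stabilises the message of Tfrc, which has hairpins in its 3′ UTR.

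The sites through which this control acts are shown because their place in the message sets whether binding acts on its translation or on its stability. They say nothing of control at transcription. A single coding transcript per gene was used, the longest of those annotated as principal isoforms, or of all where none was. It was searched for a C, any 5 bases, the loop CAGTGN and 5 bases that pair with the first 5, G-T pairs allowed. The pattern was found once each in the 5′ UTR of Fth1, Ftl1 and Slc40a1 and 4 times in the 3′ UTR of Tfrc, and it was not found in the other 6 genes. It was present in 264 of 21899 searched transcripts, or 1.21%. Each site is given below from the GRCm38 reference, 5′ to 3′ with the loop in capitals.
Fth1 (chr19:9982732-9982760, plus strand): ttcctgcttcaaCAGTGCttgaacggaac
Ftl1 (chr7:45459779-45459807, minus strand): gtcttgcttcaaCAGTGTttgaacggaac
Slc40a1 (chr1:45925465-45925493, minus strand): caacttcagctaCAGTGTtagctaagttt
Tfrc site 1 (chr16:32631219-32631247, plus strand): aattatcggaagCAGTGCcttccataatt
Tfrc site 2 (chr16:32631598-32631626, plus strand): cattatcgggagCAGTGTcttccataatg
Tfrc site 3 (chr16:32631663-32631691, plus strand): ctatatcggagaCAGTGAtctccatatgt
Tfrc site 4 (chr16:32631710-32631738, plus strand): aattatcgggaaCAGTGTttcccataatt

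Hamp has a neighbouring copy, Hamp2, and their promoters are shown because the copies differ at an element through which BMP and SMAD signals act. The 250 bases before the start sites, from RefSeq on GRCm38.p6, were searched on both strands for GGCGCC, the core of the BMP-responsive element, for TTCNNNGAA, a STAT site, and for CACGTG, an E-box. Matches to GGCGCC and to TTCNNNGAA are in capitals.
Hamp (chr7:30944030-30944279, minus strand): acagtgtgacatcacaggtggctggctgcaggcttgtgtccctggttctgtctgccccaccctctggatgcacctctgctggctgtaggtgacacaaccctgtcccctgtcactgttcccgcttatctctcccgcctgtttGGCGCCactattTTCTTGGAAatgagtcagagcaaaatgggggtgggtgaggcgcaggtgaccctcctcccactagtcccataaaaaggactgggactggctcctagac
Hamp2 (chr7:30924182-30924431, minus strand): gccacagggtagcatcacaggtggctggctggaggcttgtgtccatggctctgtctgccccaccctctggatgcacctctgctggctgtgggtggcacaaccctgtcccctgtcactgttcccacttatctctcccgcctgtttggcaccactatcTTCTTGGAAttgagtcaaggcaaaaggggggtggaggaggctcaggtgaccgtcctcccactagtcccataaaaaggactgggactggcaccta
In Hamp, GGCGCC lies at bases -109 to -104 before the start site and TTCNNNGAA at bases -97 to -89. Hamp2 keeps the STAT site and carries the substitution G4A in the other element, counted from 1 at its 5′ end. The windows share 227 of 247 aligned bases, or 91.9%. Over the same 250 bases of the 32851 promoter windows in the RefSeq table, GGCGCC was present in 9.59%, TTCNNNGAA in 7.02% and CACGTG in 6.02%. Windows were found for 7 of the 10 genes, and besides Hamp, Bmp6 held CACGTG at base -127. Tfrc held GGCGCC at base -89 in its window from 32608646 but not in that from 32608872. A match of letters does not show that a factor binds there.

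Total counts per library lay between 16632146 and 37739301. All 8 hepatocyte markers that were looked at were present in the livers, with a summed level between 51836 and 105923 CPM in the 18 libraries, where CPM is a count relative to the TMM-scaled size of its library. Cytosolic ribosomal protein genes took from 1.45% to 2.55% of counts in the 12 CON-GFP and FPC-GFP libraries and from 2.17% to 8.16% in FPC-LIPA, with 6.49%, 8.10% and 8.16% in FPC-LIPA 36, 37 and 39. Without these 3 libraries 1.22% of 15246 genes passed between the FPC groups, where 21.2% of 14620 did with them. The labels also number the libraries from 55 to 68 in 14 of them, while CON-GFP 1 and 2 and FPC-GFP 20 carry 73, 80 and 79 and FPC-LIPA 37, labelled 37b, carries a much higher number. What these numbers mark is not stated. The row of mouse Lipa, at 247 ± 33.7 CPM in CON-GFP, 340 ± 61.4 in FPC-GFP and 293 ± 51.2 in FPC-LIPA (SD, n = 6), does not report the human transgene and so does not check the virus.

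Compared per kilobase of transcript, the 10 genes spanned more than 3 orders of magnitude. The length was that of the single transcript searched for hairpins, and another choice would move these levels. Fth1 was taken at 1494 bases but has another RefSeq promoter window, from 9982396, inside the gene. Shorter transcripts would raise its level per kilobase, and which transcripts were present was not tested. In CON-GFP, mean levels were 4745 CPM per kb for Hamp, 4074 for Trf, 2971 for Ftl1 and 1054 for Fth1. The other 6 followed at 102 CPM per kb for Tfr2, 46.0 for Slc40a1, 40.1 for Slc39a14, 14.7 for Hfe, 3.31 for Tfrc and 1.54 for Bmp6. Of neighbours in this order, Hamp and Trf overlapped between libraries, as did Trf and Ftl1, and Slc40a1 and Slc39a14. The others did not. The secreted iron proteins and the ferritin subunits therefore stood far above the receptors and the signals. In FPC-GFP, Hamp took the third place at 2650 CPM per kb, behind Trf at 3841 and Ftl1 at 3113. In FPC-LIPA, Hamp was at 1554 CPM per kb, and its libraries, from 326 to 2824, overlapped those of Fth1, Trf and Ftl1. Slc40a1, at 73.6, then stood above Tfr2, at 60.9, although their libraries overlapped.

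**Figure D1:**
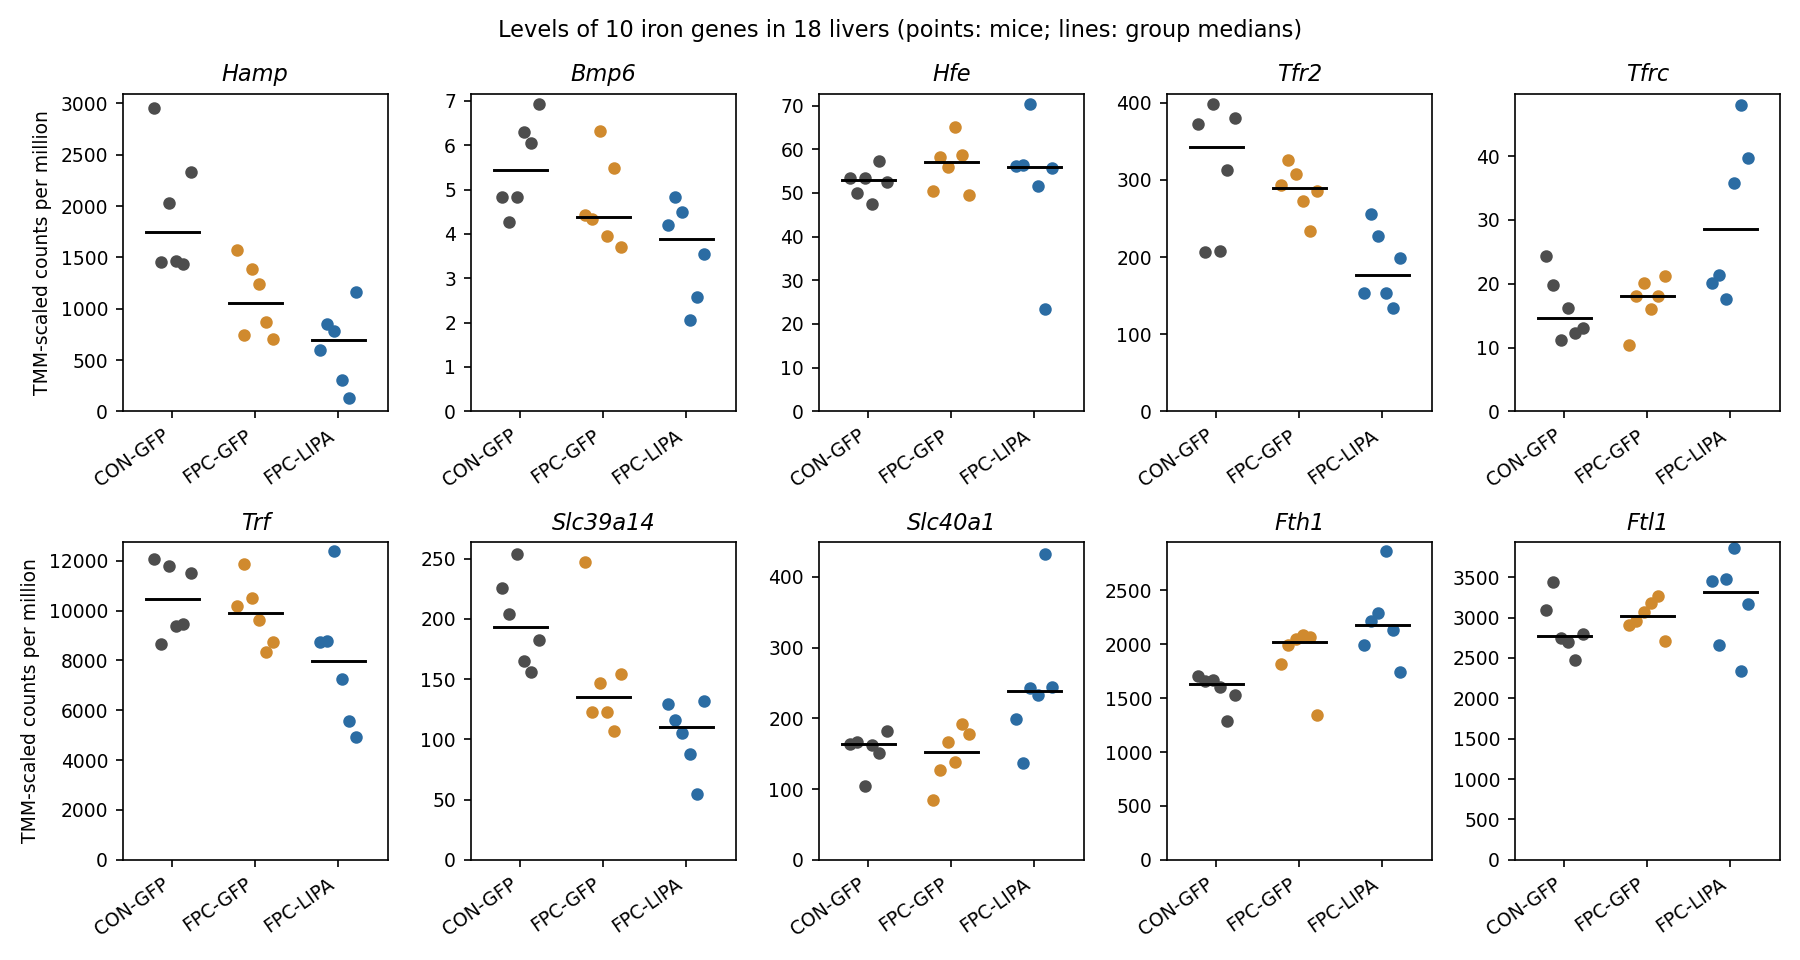
CPM (vertical axes, each from 0) of the 10 genes in the 18 livers, with each point a mouse and each line a group median. Hamp stepped down from CON-GFP (median 1745) to FPC-GFP (median 1056) and FPC-LIPA (median 690), and Tfrc was high in 3 of the 6 FPC-LIPA mice.

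The first comparison asked what the FPC diet does, with GFP virus in both groups. Among the 10 genes it lowered one, Hamp, which passed an adjusted p of 0.05 but not the 2-fold change that the study also required for a differentially expressed (DE) gene. The count is 1 of 10, where 23.8% of the 14307 genes tested passed the same threshold, 12.9% as higher and 10.9% as lower. None of the 10 was DE, against 7.20% of all genes, and in none were the 6 libraries of one group apart from the 6 of the other, against 10.4%. The median log2 fold change was -0.07 over the 10 genes and 0.01 over all genes.

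The second comparison asked what the LIPA virus adds on the FPC diet. Tfrc and Slc40a1 were higher and Tfr2 was lower in FPC-LIPA than in FPC-GFP, which makes 3 of 10 genes past an adjusted p of 0.05 against 21.2% of 14620 genes. The share of all genes was 14.4% for higher and 6.87% for lower. No member was DE, against 11.4% of genes, and none was without overlap between the groups, against 7.66%. The median log2 fold change was -0.16 over the 10 genes and 0.04 over all. All 3 calls lay close to the threshold, and none held without FPC-LIPA 36, 37 and 39, nor in the libraries numbered from 55 to 68. Few genes of any kind passed in these settings, 186 of 15246 and 104 of 14736.

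The third comparison set diet and virus together against the control diet. It shares the libraries of FPC-LIPA and of CON-GFP with the other comparisons and is not independent of them. Tfrc and Fth1 were higher and Hamp, Slc39a14 and Tfr2 were lower, so that 5 of 10 genes passed, against 22.9% of 14433 genes, with 14.7% of all genes higher and 8.20% lower. Hamp was DE, as were 15.1% of all genes. In Hamp, Slc39a14 and Fth1 the 2 groups did not overlap, against 11.1% of genes. The median log2 fold change was -0.17 over the 10 genes and 0.04 over all.

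**Figure D2:**
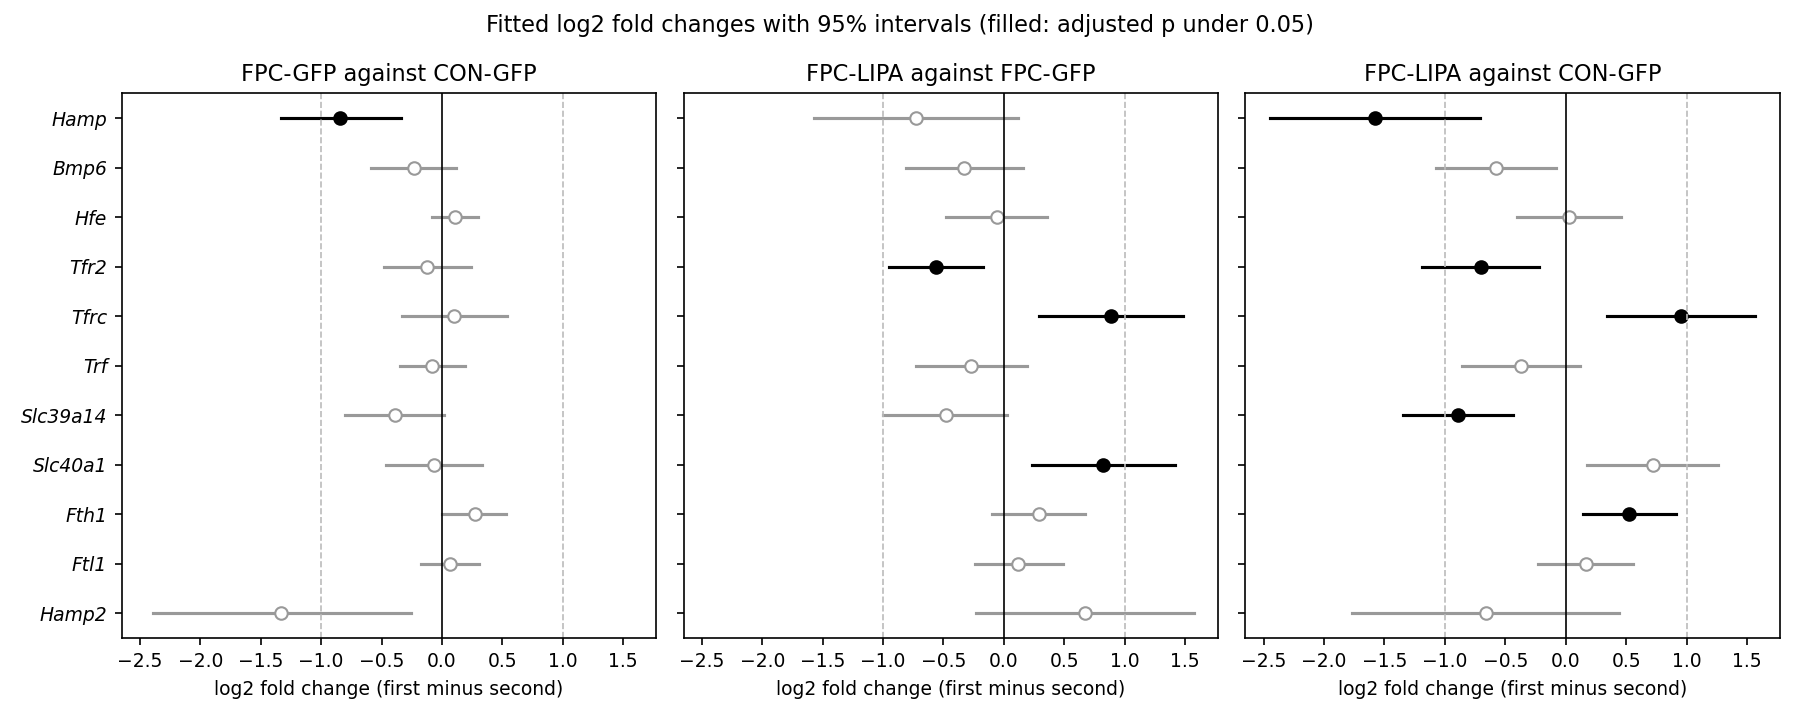
Fitted log2 fold changes (horizontal axis) with 95% intervals for the 10 genes and Hamp2 in the 3 comparisons. Filled points passed an adjusted p of 0.05 (edgeR quasi-likelihood test) and dashed lines mark a 2-fold change; Hamp in FPC-LIPA against CON-GFP, at -1.58, is the filled point beyond a dashed line.

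Hamp (ENSMUSG00000050440, GRCm38 chromosome 7, 30942368 to 30944032, minus strand), which encodes hepcidin, was the only member to pass in the diet comparison. Its level was at 1439 to 2955 CPM (median 1745) in CON-GFP, at 707 to 1574 (median 1056) in FPC-GFP and at 134 to 1158 (median 690) in FPC-LIPA. A single FPC-GFP mouse, number 11, reached into the CON-GFP range, and every FPC-LIPA mouse lay below every CON-GFP mouse. Within FPC-LIPA the mice were far apart, with 134 and 303 CPM in mice 37 and 36 and 1158 CPM in mouse 39. The mean was 1946 ± 618 CPM in CON-GFP and 1087 ± 362 in FPC-GFP, or -0.84 on the log2 scale (SE 0.23, 95% interval -1.33 to -0.34, adjusted p = 0.0181, edgeR quasi-likelihood test). In FPC-LIPA it was 637 ± 375 CPM, which differed from FPC-GFP by -0.73 (SE 0.40, 95% interval -1.57 to 0.12, adjusted p = 0.180), a difference that did not pass and whose interval also holds a further 2-fold decrease. It passed in 1 of 24 other settings, with the length trend removed (-1.35, adjusted p = 0.0491). Against CON-GFP the difference was -1.58 (SE 0.41, adjusted p = 0.0131), and this call was kept in all 24 other settings, with values from -1.92 to -1.27 and adjusted p from 4.91e-04 to 0.0400. Without FPC-LIPA 36, 37 and 39 it was -1.37 (adjusted p = 0.00374).

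The diet difference in Hamp held with any 1 library left out, with values from -0.97 to -0.68. It missed the threshold in the libraries numbered from 55 to 68 (-0.64, adjusted p = 0.0860), with all 18 libraries in a single fit (-0.83, adjusted p = 0.170), and when each library's trend on gene length was removed (-0.56, adjusted p = 0.0949) or on length and GC together (-0.56, adjusted p = 0.0931), the Hamp transcript having 410 bases. The summed level of 8 markers of hepatocytes, the cells that make hepcidin, was lowest in FPC-LIPA, although the mean of Apoa1 was highest there and that of Apob lowest in FPC-GFP. The sum lay between 72428 and 105923 CPM in CON-GFP, between 63043 and 88873 in FPC-GFP and between 51836 and 78186 in FPC-LIPA, and its part in the difference was not tested. Of the 8 markers, 2 passed as lower with the diet, none between the FPC groups and 4 as lower in FPC-LIPA against CON-GFP. In bulk liver RNA, fewer cells of a type and less RNA per cell cannot be told apart. Alb, the most abundant of these markers, stood at -0.41 in FPC-LIPA relative to CON-GFP (log2 scale, SE 0.21, adjusted p = 0.173).

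Hamp2 (ENSMUSG00000056978, chromosome 7, 30922372 to 30924681) has a transcript that is 94.6% identical to that of Hamp and shares a stretch of 87 bases with it, so reads of one copy could have been counted on the other. It was measured at 14.1 to 112 CPM (median 47.3) in CON-GFP, at 8.61 to 47.3 (median 16.6) in FPC-GFP and at 17.4 to 78.9 (median 27.7) in FPC-LIPA. All 3 groups overlapped, and no difference passed. The log2 fold change was -1.33 for the diet (SE 0.50, adjusted p = 0.0660) and 0.67 for LIPA on the diet (SE 0.42, adjusted p = 0.244), the latter opposite in sign to that of Hamp. The diet value passed without CON-GFP 2 (-1.53, adjusted p = 0.0360), CON-GFP 7 (-1.52, adjusted p = 0.0339) or FPC-GFP 16 (-1.68, adjusted p = 0.0322). Hamp2 made up 0.963% to 7.12% of the summed level of the copies in CON-GFP, 1.05% to 3.68% in FPC-GFP and 2.92% to 11.5% in FPC-LIPA, so the sum followed Hamp.

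Upstream of Hamp, Bmp6 (ENSMUSG00000039004, chromosome 13, 38345107 to 38500302, plus strand) encodes the ligand made by sinusoidal endothelial cells. It had the lowest level of the 10, at 4.28 to 6.92 CPM (median 5.44) in CON-GFP, at 3.70 to 6.32 (median 4.38) in FPC-GFP and at 2.06 to 4.83 (median 3.88) in FPC-LIPA. These levels rest on 36 to 210 counts per library, and the groups overlapped. The log2 fold change was -0.23 for the diet (95% interval -0.59 to 0.12, adjusted p = 0.320), -0.33 for LIPA on the diet (-0.81 to 0.16, adjusted p = 0.291) and -0.58 for both together (-1.07 to -0.08, adjusted p = 0.0826). With both the length and the GC trend of each library removed, the diet value was -0.56 (adjusted p = 0.0193), and the value for both together passed in 6 of 24 other settings, one of them without FPC-LIPA 33 (-0.69, adjusted p = 0.0386). The summed level of 9 other endothelial markers was highest in FPC-LIPA, although the mean of Stab2 was lowest there and that of Pecam1 highest in FPC-GFP, the sum being between 226 and 357 CPM in CON-GFP, between 301 and 368 in FPC-GFP and between 339 and 486 in FPC-LIPA, and its part in the level of Bmp6 was not tested.

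HFE and transferrin receptor 2 sense circulating iron. Hfe (ENSMUSG00000006611, chromosome 13, 23702034 to 23710854, minus strand), whose product joins transferrin receptor 2 on hepatocytes, was at 47.5 to 57.4 CPM (median 52.9) in CON-GFP, at 49.5 to 65.1 (median 57.1) in FPC-GFP and at 23.5 to 70.4 (median 55.97) in FPC-LIPA. Only FPC-LIPA 37 lay far below the rest. Its log2 fold change was 0.11 for the diet (95% interval -0.08 to 0.30) and -0.06 for LIPA on the diet (-0.48 to 0.36), so that a 2-fold change lay outside both intervals. With library size alone as the scaling, the diet value was 0.31 (adjusted p = 0.0448), where the median of all genes moved by 0.20.

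Tfr2 (ENSMUSG00000029716, chromosome 5, 137569840 to 137587481, plus strand) encodes transferrin receptor 2, the hepatocyte's sensor of iron-loaded transferrin. Levels were at 207 to 399 CPM (median 343) in CON-GFP, at 233 to 325 (median 290) in FPC-GFP and at 134 to 256 (median 177) in FPC-LIPA. CON-GFP fell into 4 mice above 310 CPM and mice 2 and 6 near 207 CPM, and only FPC-LIPA 33 reached into the FPC-GFP range. The mean was 286 ± 31.7 CPM in FPC-GFP and 187 ± 47.8 in FPC-LIPA, which was lower (log2 difference -0.56, SE 0.18, adjusted p = 0.0430). Against CON-GFP, at 313 ± 86.9 CPM, it was -0.70 (SE 0.23, adjusted p = 0.0384), and the diet value was -0.12 (95% interval -0.48 to 0.24), or -0.44 with the length and GC trends removed together (adjusted p = 0.0220). The difference between the FPC groups was -0.42 without FPC-LIPA 36, 37 and 39 (adjusted p = 0.222) and -0.14 with the length and GC trends removed together (adjusted p = 0.575), and it missed the threshold without any one FPC-GFP library or without FPC-LIPA 31, 36, 37 or 39, at values from -0.62 to -0.50. The difference from CON-GFP missed it without CON-GFP 1, 3, 7 or 8 or FPC-LIPA 31, 36, 37 or 39, at -0.73 to -0.63.

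Uptake of transferrin-bound iron runs through Tfrc (ENSMUSG00000022797, chromosome 16, 32608920 to 32632794, plus strand), transferrin receptor 1. The message of Tfrc carries the 4 matches shown above, and the search misses hairpins that depart from its pattern. Its level was at 11.2 to 24.4 CPM (median 14.7) in CON-GFP, at 10.5 to 21.3 (median 18.1) in FPC-GFP and at 17.6 to 47.9 (median 28.6) in FPC-LIPA. The FPC-LIPA mice fell apart into mice 34, 31 and 33, at 17.6, 20.1 and 21.4 CPM and within or at the edge of the FPC-GFP range, and mice 36, 39 and 37, at 35.8, 39.7 and 47.9 CPM. The mean was 17.3 ± 3.83 CPM in FPC-GFP and 30.4 ± 12.5 in FPC-LIPA, which was higher by 0.89 on the log2 scale (SE 0.28, adjusted p = 0.0384). It was 16.2 ± 5.11 CPM in CON-GFP, from which FPC-LIPA differed by 0.95 (SE 0.29, adjusted p = 0.0281). The diet value was 0.10 (95% interval -0.33 to 0.54).

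The 3 mice with high Tfrc were those with a ribosomal protein share of 6.49% to 8.16%. Without them the log2 fold change between the FPC groups was 0.20 (adjusted p = 0.641) and that against CON-GFP was 0.31 (adjusted p = 0.410). Leaving out any one FPC-GFP library, or FPC-LIPA 36, 37 or 39, also ended the call between the FPC groups, at values from 0.67 to 0.96, as did leaving out CON-GFP 3, 6, 7 or 8 or one of these 3 mice for the call against CON-GFP, at 0.76 to 0.95. The same 3 mice had the highest summed level of 8 erythroid markers, at 1734, 2561 and 1744 CPM in mice 36, 39 and 37, against 530 to 949 CPM in mice 31, 33 and 34, with no more than 588 CPM in any CON-GFP and 490 in any FPC-GFP mouse. Erythroid precursors depend on Tfrc, and the part of these cells was not tested. Most of that sum in FPC-LIPA was Hbb-bs, a globin chain, whose log2 fold change between the FPC groups was 3.33 (adjusted p = 0.00790), whereas the heme synthesis gene Alas2 had -0.61 (adjusted p = 0.0870). Of the 6 erythroid markers tested there, 4 had a value above 0 and 2 passed as higher. The mean of Epor was lower, at 1.20 CPM in FPC-LIPA and 1.57 in FPC-GFP, so the sum does not speak for every marker.

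**Figure D3:**
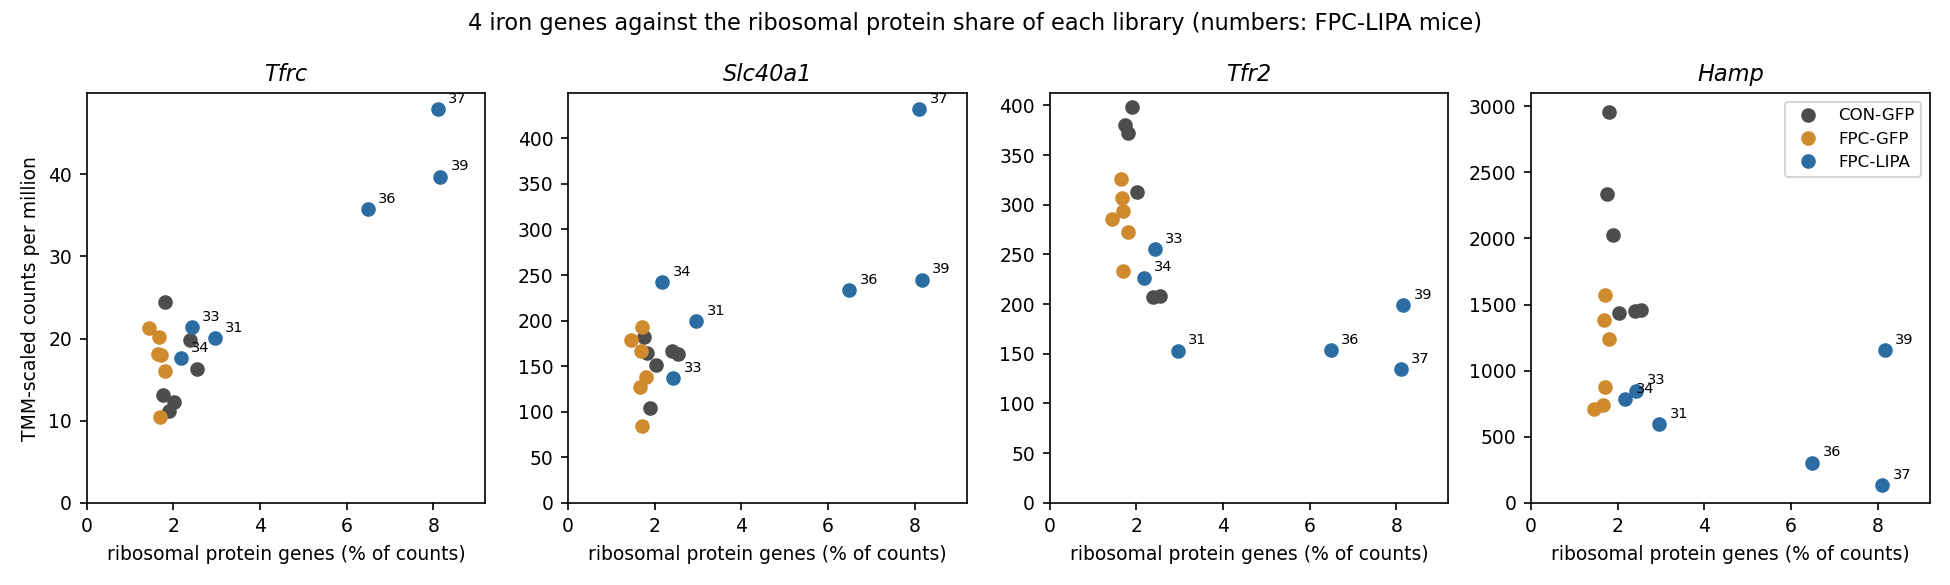
CPM of Tfrc, Slc40a1, Tfr2 and Hamp (vertical axes, from 0) against the share of counts on ribosomal protein genes (horizontal axis, percent) in the 18 livers, with FPC-LIPA mice numbered. FPC-LIPA 36, 37 and 39 lie apart at 6.49% to 8.16%, and they hold the 3 highest Tfrc levels and the lowest Hamp levels, 134 and 303, but also the highest Hamp level of that group, 1158.

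Trf (ENSMUSG00000032554, chromosome 9, 103204001 to 103230444, minus strand), the serum carrier transferrin that hepatocytes secrete, was among the most abundant transcripts. It was at 8652 to 12078 CPM (median 10482) in CON-GFP, at 8349 to 11855 (median 9891) in FPC-GFP and at 4921 to 12383 (median 7999) in FPC-LIPA. FPC-LIPA held both the lowest and the highest mouse of the study, numbers 39 and 34. The log2 fold change was -0.08 for the diet (95% interval -0.35 to 0.19) and -0.27 for LIPA on the diet (-0.73 to 0.19), or 0.03 without FPC-LIPA 36, 37 and 39, and none of these passed.

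Iron that is not bound to transferrin enters hepatocytes through ZIP14, the product of Slc39a14 (ENSMUSG00000022094, chromosome 14, 70303469 to 70351425, minus strand). The gene was at 156 to 254 CPM (median 193) in CON-GFP, at 107 to 247 (median 135) in FPC-GFP and at 55.1 to 132 (median 111) in FPC-LIPA. All FPC-LIPA mice were below all CON-GFP mice, and 5 of the 6 FPC-GFP mice were too, the exception being mouse 11 at 247 CPM. Its mean was 198 ± 37.5 CPM in CON-GFP, 150 ± 50.5 in FPC-GFP and 104 ± 29.1 in FPC-LIPA. The fall in FPC-LIPA against CON-GFP was -0.89 on the log2 scale (SE 0.22, adjusted p = 0.00900). It passed in 23 of 24 other settings, among them the one without FPC-LIPA 36, 37 and 39 (-0.74, adjusted p = 0.0132), and missed the threshold in the libraries numbered from 55 to 68 (-0.70, adjusted p = 0.0568). Diet alone gave -0.39 (SE 0.19, adjusted p = 0.149), which became -0.59 (adjusted p = 0.0144) without FPC-GFP 11, and LIPA on the diet gave -0.48 (SE 0.24, adjusted p = 0.145).

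Slc40a1 (ENSMUSG00000025993, chromosome 1, 45908068 to 45926523, minus strand) encodes ferroportin, the exporter that hepcidin removes. Its level was at 104 to 181 CPM (median 164) in CON-GFP, at 84.0 to 192 (median 152) in FPC-GFP and at 137 to 432 (median 238) in FPC-LIPA. FPC-LIPA 37, at 432 CPM, stood above all others, 4 more mice of that group lay between 199 and 245 CPM and above every FPC-GFP and CON-GFP mouse, and mouse 33 lay within their range. The mean was 148 ± 39.8 CPM in FPC-GFP and 248 ± 98.8 CPM in FPC-LIPA, higher by 0.82 on the log2 scale (SE 0.28, adjusted p = 0.0484). Without mouse 37 it was 0.54 (adjusted p = 0.112), and without mice 36, 37 and 39 it was 0.39 (adjusted p = 0.426). It also missed the threshold without any one FPC-GFP library or without FPC-LIPA 34, 36 or 39, at values from 0.70 to 0.90. Against CON-GFP, at 155 ± 26.7 CPM, it was 0.72 (SE 0.25, adjusted p = 0.0518), which passed in 9 of 24 other settings, and the diet value was -0.07 (95% interval -0.46 to 0.33).

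Ferroportin is abundant in Kupffer cells, the resident macrophages of the liver that recycle iron from red cells. Summed over 9 Kupffer cell markers, none of which was at 0 in any library, the level was between 148 and 307 CPM in CON-GFP, between 416 and 735 in FPC-GFP and between 514 and 1112 in FPC-LIPA. In this sum CON-GFP and FPC-GFP did not overlap. The median sum was highest in FPC-LIPA, although the mean of Csf1r and the median of Marco were highest in FPC-GFP. Within FPC-LIPA the marker sum was 1112 CPM in mouse 33, which had the lowest Slc40a1 of the group, and 901 CPM in mouse 37, which had the highest. The sum of 10 monocyte and macrophage markers was between 101 and 314 CPM in FPC-GFP and between 438 and 689 in FPC-LIPA, and the part of either cell type in the level of Slc40a1 was not tested.

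The ferritin subunits store iron as a shell of heavy chains, which oxidise it, and light chains, which help to deposit it. Fth1 (ENSMUSG00000024661, chromosome 19, 9980598 to 9985098, plus strand), the heavy chain, was at 1286 to 1707 CPM (median 1629) in CON-GFP, at 1343 to 2088 (median 2021) in FPC-GFP and at 1744 to 2869 (median 2176) in FPC-LIPA. FPC-LIPA lay wholly above CON-GFP, as did 5 of the 6 FPC-GFP mice, with mouse 20 at 1343 CPM the exception. The mean was 1574 ± 155 CPM in CON-GFP, 1892 ± 286 in FPC-GFP and 2207 ± 377 in FPC-LIPA. Fth1 was higher in FPC-LIPA than in CON-GFP by 0.52 on the log2 scale (SE 0.18, adjusted p = 0.0476). That call was lost in 16 of 24 other settings, among them each that left out 1 library other than FPC-LIPA 39, although the value stayed between 0.44 and 0.61. The diet value was 0.27 (SE 0.12, adjusted p = 0.130), 0.34 without FPC-GFP 20 (adjusted p = 0.0420), and 0.47 with library size alone as the scaling (adjusted p = 0.00894).

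Ftl1 (ENSMUSG00000050708, chromosome 7, 45457944 to 45459884, minus strand), the light chain, was at 2471 to 3444 CPM (median 2774) in CON-GFP, at 2705 to 3261 (median 3014) in FPC-GFP and at 2335 to 3859 (median 3312) in FPC-LIPA. The groups overlapped throughout. Its log2 fold change was 0.07 for the diet (95% interval -0.17 to 0.31), 0.12 for LIPA on the diet (-0.24 to 0.49) and 0.17 for both (-0.23 to 0.56). Per kilobase, the ratio of Fth1 to Ftl1 was 0.312 to 0.393 (median 0.356) in CON-GFP, 0.322 to 0.437 (median 0.417) in FPC-GFP and 0.356 to 0.592 (median 0.454) in FPC-LIPA. The size of these ratios rests on the single transcript chosen for each gene, and a shorter Fth1 transcript would raise them. Both genes have processed pseudogenes that could hold some of their reads. Ftl1-ps1 had at most 12.4 CPM in any library, and Fth-ps2, Fth-ps3 and Ftl1-ps2 had at most 7 counts.

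**Figure D4:**
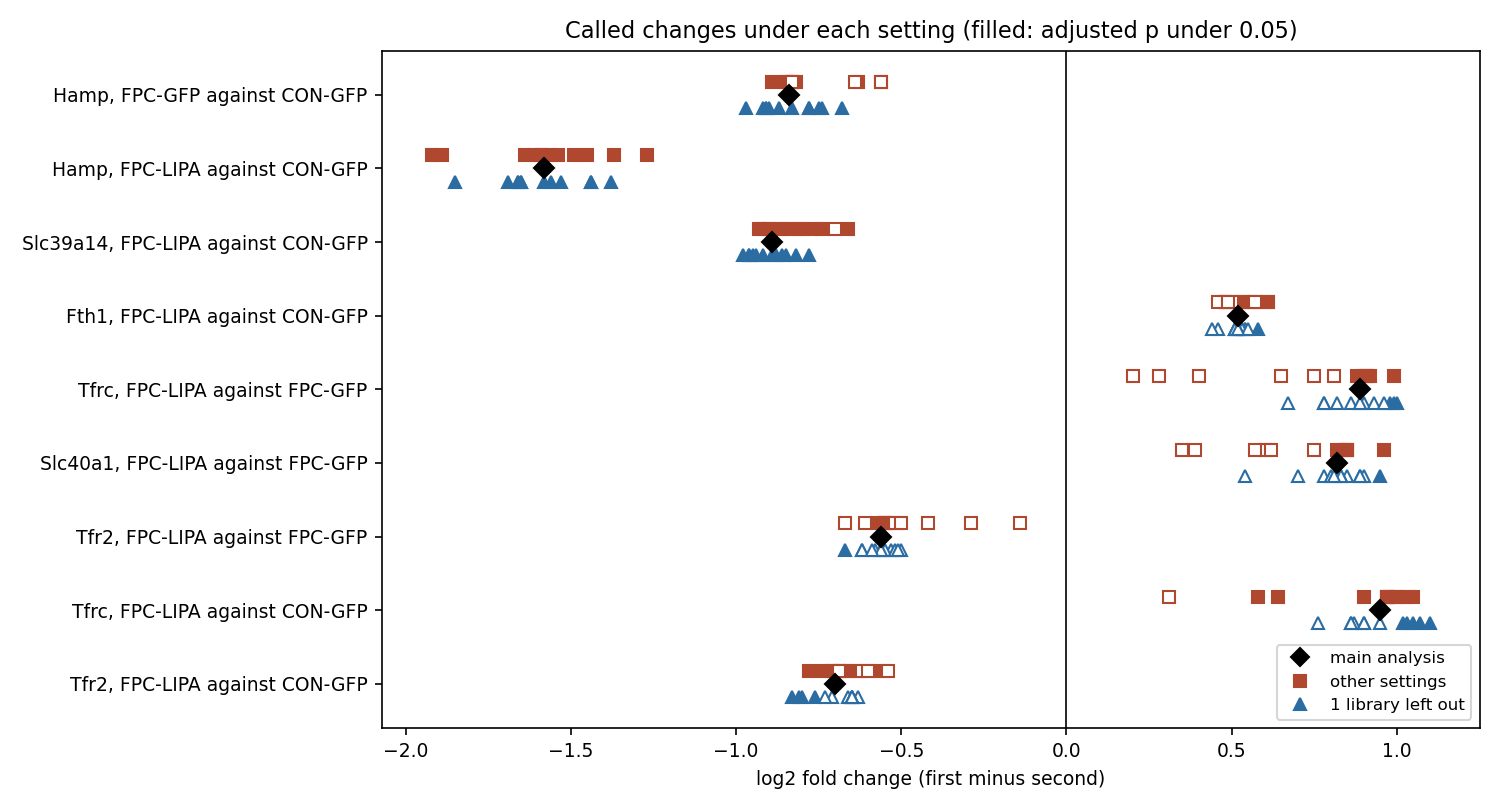
Log2 fold changes (horizontal axis) of the 9 called differences in the main analysis (diamonds), in other settings (squares) and with 1 library left out (triangles), filled where the adjusted p was under 0.05. Hamp in FPC-LIPA against CON-GFP is filled in all 24 other settings, and Tfrc between the FPC groups ranges from 0.20 to 1.00 and is filled in 9 of 24.

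Other genes of the pathway, from lists of related function, are given beside the 10. In the BMP and SMAD arm of hepcidin control, 28 genes were tested. With the diet, 3 passed as higher and 1 as lower, 14.3% against 23.8% of all genes. The one that fell was Hjv, the hemojuvelin co-receptor through which BMP signals reach Hamp, which went from 121 ± 4.55 to 82.8 ± 19.0 CPM with no overlap between the groups (log2 fold change -0.55, SE 0.13, adjusted p = 0.00925). The 3 that rose were Acvrl1 (1.03, adjusted p = 0.00245) and Eng (0.59, adjusted p = 0.0108), a receptor and co-receptor of endothelial cells, and the inhibitory Smad6 (0.79, adjusted p = 0.0111). Tmprss6, the protease that cleaves hemojuvelin and the most abundant of the list, was at 490 ± 112 CPM in CON-GFP, 471 ± 45.3 in FPC-GFP and 280 ± 136 in FPC-LIPA. Its difference between the FPC groups was -0.72 (SE 0.27, adjusted p = 0.0653). Fgl1, a hepatokine that binds BMP ligands, had 0.10 there (adjusted p = 0.809).

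With LIPA on the diet, 5 of the 28 genes passed, or 17.9% against 21.2%. Bmp2, the other endothelial ligand, went from 12.5 ± 2.91 to 34.9 ± 20.3 CPM (log2 fold change 1.56, SE 0.35, adjusted p = 0.0154), and its groups did not overlap. Bmp5 was also higher (0.75, adjusted p = 0.0239), and Bmp7 (-0.97, adjusted p = 0.0188), Neo1, a receptor that binds hemojuvelin (-0.60, adjusted p = 0.0245), and Furin were lower, the last a protease that processes hepcidin and hemojuvelin (-1.17, adjusted p = 0.0224). Of genes used as reporters of SMAD activity, Id1 was at 0.52 (SE 0.30) on the log2 scale, Smad7 at 0.26 (SE 0.33) and Atoh8 at -0.56 (SE 0.31). None of these passed, nor did Smad6 (-0.45), Id2 or Id3 of the same list. SMAD activity itself was not tested. Bmp2 and Bmp6 differed in sign, and without FPC-LIPA 36, 37 and 39 Bmp2 had 0.57 (adjusted p = 0.151). Without these 3 mice Bmp5 had 0.40 (adjusted p = 0.174), Furin -0.67 (adjusted p = 0.0714) and Bmp7 -0.88 (adjusted p = 0.118). Against CON-GFP, 4 of 28 passed, or 14.3% against 22.9%, Acvrl1 and Bmp2 higher and Bmp7 and Hjv lower, of which Bmp2 (0.22, adjusted p = 0.546) and Hjv (-0.32, adjusted p = 0.206) did not pass without these mice.

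In the interleukin-6 and STAT3 arm, 15 genes were tested with the diet, 3 passing as higher and 2 as lower, or 33.3% against 23.8% of all genes. Inhbb, a subunit of activin B that can raise hepcidin, went from 1.08 ± 0.177 to 3.31 ± 1.24 CPM (log2 fold change 1.62, SE 0.26, adjusted p = 9.02e-04), and Il1b (1.28, adjusted p = 0.0275) and the shared receptor subunit Il6st (0.40, adjusted p = 0.0311) were higher too. The receptors Lifr (-0.88, adjusted p = 0.00642) and Il6ra (-0.92, adjusted p = 0.0292) were lower. The call of Il1b was lost without CON-GFP 1, CON-GFP 2 or FPC-GFP 19 (lowest value 0.94), and that of Il6ra without CON-GFP 1 or FPC-GFP 13, 16 or 19 (value nearest to 0, -0.65). With LIPA on the diet 3 of 16 passed, all lower, or 18.8% against 21.2%. These were Il6ra (-1.05, adjusted p = 0.0463), Stat3 itself, from 89.6 ± 31.3 to 47.2 ± 15.9 CPM (-0.88, SE 0.25, adjusted p = 0.0291), and Cebpa, a hepatocyte factor that acts on the Hamp promoter (-0.88, adjusted p = 0.0159, groups without overlap). Without FPC-LIPA 36, 37 and 39 they had -0.87 (adjusted p = 0.169), -0.62 (adjusted p = 0.226) and -0.58 (adjusted p = 0.0660). Il6 was below the filter on low counts, at 0.170 CPM in FPC-LIPA and under that in the other groups. Diet and virus together gave 3 higher and 5 lower of 16, where 22.9% of all genes passed, among them Creb3l3 (-0.77, adjusted p = 0.0139), a hepatocyte transcription factor that can act on the Hamp promoter, and Osmr (1.01, adjusted p = 0.00656).

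Of 13 genes for iron regulatory proteins and iron chaperones, 3 passed with the diet, or 23.1% against 23.8% of all genes, and 5 with LIPA on the diet, or 38.5% against 21.2%. Aco1, iron regulatory protein 1, was lower in FPC-LIPA than in FPC-GFP, at 140 ± 30.4 against 209 ± 21.5 CPM (-0.52, SE 0.17, adjusted p = 0.0425). Fbxl5, which targets iron regulatory protein 2 for degradation when iron is plentiful, was higher (1.42, adjusted p = 0.0207), and the ferritin receptor Ncoa4, which carries ferritin to lysosomes, was lower (-0.60, adjusted p = 0.0391). Ireb2, iron regulatory protein 2, had 0.66 (SE 0.32, adjusted p = 0.132). The chaperone Bola2 and its partner Glrx3 were lower with the diet (-0.38, adjusted p = 0.0170, and -0.34, adjusted p = 0.0226) and higher with LIPA, by 3.03-fold each (adjusted p = 0.0171 and 0.0176). Without the 3 mice with many ribosomal counts the latter were 0.39 and 0.35 on the log2 scale (adjusted p = 0.204 and 0.191), and Fbxl5 was at 0.41 (adjusted p = 0.288), Aco1 at -0.40 (adjusted p = 0.212) and Ncoa4 at -0.34 (adjusted p = 0.246). The poly(C)-binding chaperones that load ferritin, Pcbp1 and Pcbp2, had 0.43 (adjusted p = 0.0306) and -0.24 (adjusted p = 0.0578) with the diet, the former call being lost without CON-GFP 2 or 6 or FPC-GFP 11 or 16 (lowest value 0.32).

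Among 12 tested genes of iron transport and reduction, 4 passed with the diet, or 33.3% against 23.8% of all genes. Slc11a1, the phagosomal iron transporter of macrophages, rose from 5.43 ± 1.37 to 11.6 ± 2.16 CPM (1.09, SE 0.17, adjusted p = 8.37e-04), and Steap2 was higher as well (0.61, adjusted p = 0.0310), a call lost without CON-GFP 1, 2 or 3 or FPC-GFP 13, 16 or 19 (lowest value 0.46). Scara5, a ferritin receptor of stromal cells, fell from 23.7 ± 22.7 to 2.51 ± 2.54 CPM (-3.22, SE 0.79, adjusted p = 0.00997), and Slc39a8, the closest relative of Slc39a14, was lower (-0.58, adjusted p = 0.0189). With LIPA 4 of 13 passed, or 30.8% against 21.2%, and Slc39a8 was then higher, at 40.6 ± 22.6 against 16.9 ± 2.66 CPM (1.35, SE 0.31, adjusted p = 0.0159). Heph, a ferroxidase (1.52, adjusted p = 0.0343), and Slc11a1 (0.87, adjusted p = 0.0231) were higher, and Scara5 was lower (-2.46, adjusted p = 0.0298). Levels were low for Heph, at 1.07 CPM in FPC-GFP and 2.95 in FPC-LIPA, and for Scara5, at 0.443 CPM in FPC-LIPA. With 1 library left out, the call was lost in 7 of 12 fits for Heph, 5 for Scara5 and 2 for Slc11a1. Without FPC-LIPA 36, 37 and 39 Slc39a8 had 0.57 (adjusted p = 0.0830) and Heph 0.54 (adjusted p = 0.487). Cp, the ferroxidase ceruloplasmin that hepatocytes secrete, and Steap4, a reductase, had diet values of 0.21 (SE 0.11) and -0.06 (SE 0.30).

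Heme and hemoglobin salvage was represented by 13 genes. With the diet, Hmox1, the inducible heme oxygenase, rose from 16.6 ± 3.24 to 28.7 ± 4.03 CPM with no overlap (0.79, SE 0.13, adjusted p = 0.00122), as did the heme transporter Slc48a1 (0.68, adjusted p = 7.38e-04) and the biliverdin reductase Blvrb (0.43, adjusted p = 0.0148), and Hmox2 was lower (-0.30, adjusted p = 0.0475). This made 4 of 13, or 30.8% against 23.8%, but the call of Hmox2 was lost in 16 of 23 other settings, with every single library left out other than CON-GFP 2 and 6. With LIPA, Blvra (0.82, adjusted p = 0.0270), Blvrb (0.86, adjusted p = 0.0472) and the heme scavenger Hpx (0.66, adjusted p = 0.0422) were higher, and the scavenger receptors Lrp1 (-0.91, adjusted p = 0.0203) and Cd163 (-1.09, adjusted p = 0.0482) were lower, 5 of 13 or 38.5% against 21.2%. Without FPC-LIPA 36, 37 and 39 Blvrb had 0.03 (adjusted p = 0.926), Blvra 0.32 (adjusted p = 0.346), Hpx 0.27 (adjusted p = 0.336) and Lrp1 -0.52 (adjusted p = 0.110), and none of the 5 passed. Hmox1 had 0.42 between the FPC groups with all libraries (SE 0.22, adjusted p = 0.162). Without FPC-LIPA 36, 37 and 39 it had 0.66 (adjusted p = 0.115). Hmox1 is also a marker of Kupffer cells, whose 9 summed markers, without it, had a median of 223 CPM in CON-GFP and 496 in FPC-GFP. The part of these cells in the rise of Hmox1 and Slc11a1 with the diet was not tested. Hp, the hemoglobin carrier haptoglobin, had -0.34 with the diet (SE 0.17, adjusted p = 0.155). In FPC-LIPA against CON-GFP, Hmox1 (1.20, adjusted p = 0.00280) and Blvrb (1.26, adjusted p = 0.00709) were higher, the latter at 0.46 without these mice (adjusted p = 0.0476).

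Without FPC-LIPA 36, 37 and 39, of 21 genes of these 5 lists that had passed between the FPC groups and were refitted, 1 passed, Slc11a1 (1.05, adjusted p = 0.0422). The values ranged down to 0.03 for Blvrb, and those of Slc11a1, Scara5 (-2.82, adjusted p = 0.142) and Cd163 (-1.54, adjusted p = 0.0651) were farther from 0 than before. Against CON-GFP, 13 of 24 passed without these mice and 11 did not, Bola2 and Glrx3 being at 0.01 each. Over all genes tested, called before or not, 1.22% of 15246 passed between the FPC groups without these mice and 18.0% of 15113 against CON-GFP. Only FPC-LIPA 31, 33 and 34 remain in these refits, so a lost call can also reflect fewer mice. With 1 library left out, the call between the FPC groups was lost in 10 of 12 fits for Aco1 and Cd163. It was lost in 9 for Ncoa4, Hpx, Blvrb and Il6ra, in 7 for Blvra, in 6 for Stat3 and in 2 for Furin and Bmp5. Bmp2, Bmp7, Cebpa, Lrp1, Bola2, Glrx3, Fbxl5 and Slc39a8 kept it in each of these fits. Among the 13 that passed against CON-GFP were Hmox1 (1.45, adjusted p = 9.03e-04), Inhbb (2.08, adjusted p = 1.43e-04), Il6ra (-1.78, adjusted p = 0.00678), Lifr (-1.22, adjusted p = 0.00198), Creb3l3 (-0.58, adjusted p = 0.0425) and Ncoa4 (-0.45, adjusted p = 0.0471).

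**Figure D5:**
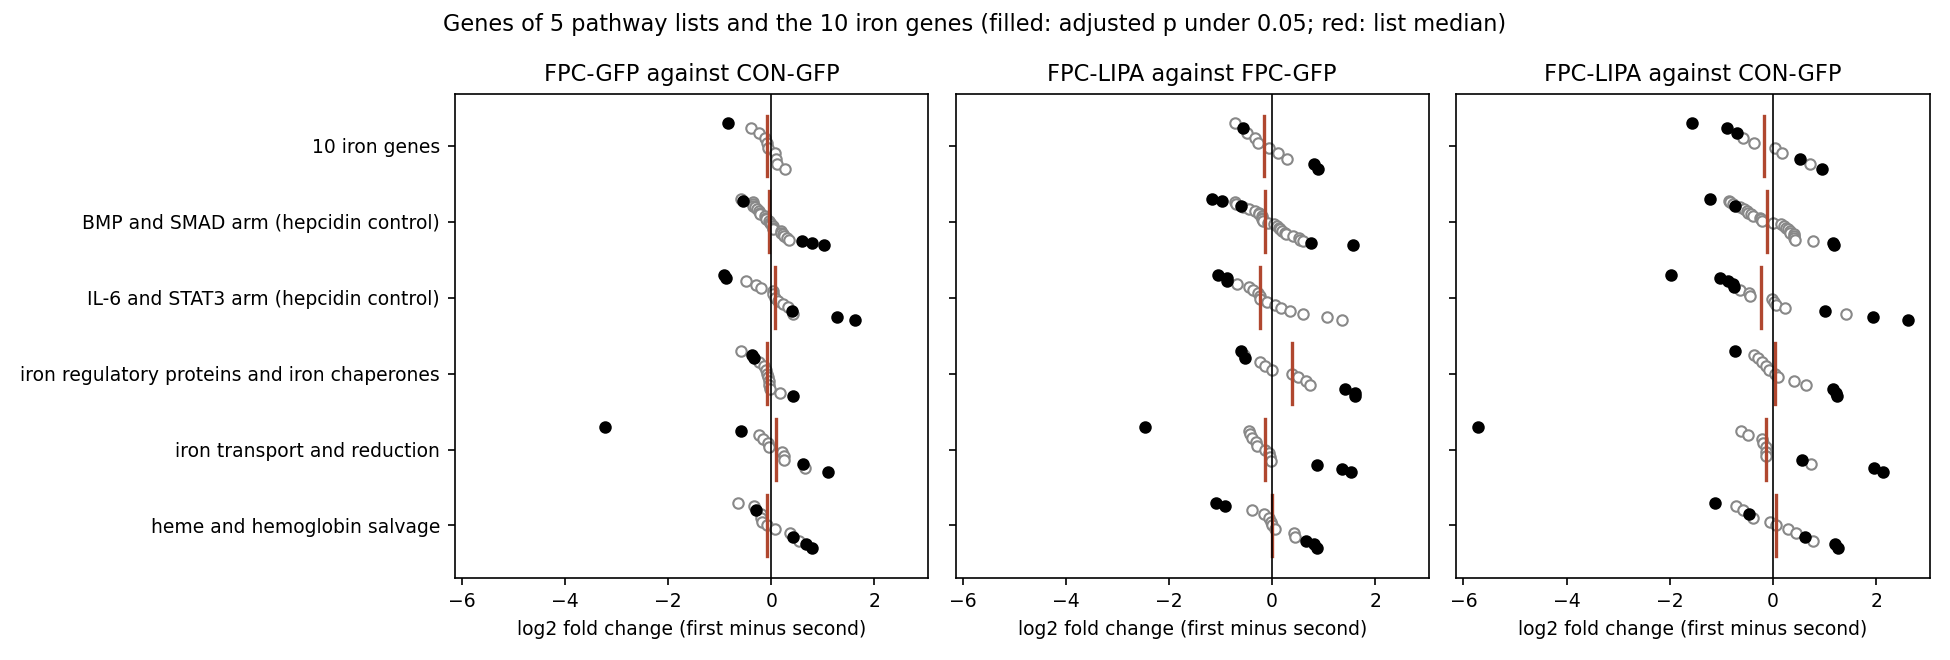
Log2 fold changes (horizontal axis) of the 10 iron genes and of the tested genes of 5 related lists in the 3 comparisons, with each point a gene, filled where the adjusted p was under 0.05, and the red line the list median. In FPC-LIPA against CON-GFP the 10 genes run from -1.58 (Hamp) to 0.95 (Tfrc). The point farthest to the left is Scara5, at -5.72, with a mean of only 0.443 CPM in FPC-LIPA.

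Genes with the pattern most like that of 4 members were sought among 12735 genes with a mean of at least 1 CPM, by Pearson's r of log2 CPM over the 18 libraries. These values describe libraries that also share group differences and the spread in ribosomal counts. For Hamp they were Spata2l (r = 0.95), Hpn, which encodes the hepatocyte protease hepsin (0.93), and Srrd (0.93). For Tfrc they were Degs1 (0.90), a ceramide-forming desaturase, 9030616G12Rik (0.89) and AW112010 (0.88). Slc40a1 was followed most closely by Nectin3 (0.91), Asah1 (0.89), which encodes the lysosomal acid ceramidase, and Zbtb1 (0.89), and Bmp6 by Mettl14 (0.88), Slc25a35 (0.87) and Wdr83 (0.87).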

How the data were processed

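Liver RNA of 18 mice was sequenced, 1 library per mouse. The authors trimmed paired reads with Trimmomatic, mapped them with HISAT2 2.1.0 to mouse GRCm38 (mm10) and deposited raw counts per gene, made with Feature Counts and not normalized. The sources name both a stranded and an unstranded kit. Strand setting, annotation version and the handling of reads with several positions are not given in the sources used here, and 5 further count columns were not used. Genes were kept with filterByExpr, scaled by TMM and tested with the quasi-likelihood test of edgeR 4.0.16 (R 4.3.3) on the 12 libraries of each comparison, with Benjamini-Hochberg adjustment over all genes tested. DE meant at least 2-fold and an adjusted p under 0.05. CPM values were scaled over all 18 libraries, and log2 CPM used a prior count of 2. Each SE is the size of the fold change over the square root of F, and intervals are 95%. Replicates are separate mice, and none of their counts agreed within sampling noise.

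Named genes were the 10 members, Hamp2, ferritin pseudogenes, mouse Lipa, the 2 most abundant genes of each pathway list and up to 4 with the largest called change per comparison, the most abundant markers, and the 3 genes most like Hamp, Tfrc, Slc40a1 and Bmp6. Ireb2, Il6, Il6st, Osmr, Neo1, Id1, Smad7 and Atoh8 were added after their values were seen. Members and lists were chosen with earlier results of these data known. Alternatives were DESeq2 1.42.0 and its size factors, upper-quartile factors, library size alone, other filters, one fit of all libraries, libraries numbered 55 to 68, each library or FPC-LIPA 36, 37 and 39 left out, and removal of length and GC trends with natural splines of 5 degrees of freedom. The code was tested on simulated data. Annotation came from GENCODE and RefSeq, with tables and figures made in Python 3.11.15 with matplotlib 3.10.9. Protein sequences were not analysed here.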

Additional observations from a re-analysis of the deposited data

Results flagged for a closer look

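In 33 groups of 6 libraries examined for the 10 genes and Hamp2, 4 held a library whose gap to its nearest neighbour exceeded Dixon's 95% critical value of 0.625 of the whole range, where chance gives about 1 in 20 groups. Fth1 was at 1343 CPM in FPC-GFP 20, below the next library at 1818 CPM, a gap of 0.64 of the range. Slc40a1 was at 432 CPM in FPC-LIPA 37, above the next at 245 CPM, a gap of 0.63. Slc39a14 was at 247 CPM in FPC-GFP 11, above the next at 155 CPM, a gap of 0.66. Hamp2 was at 78.9 CPM in FPC-LIPA 33, above the next at 38.1 CPM, a gap of 0.66.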

How the results depend on the processing

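Of the 30 member differences none turned a called direction in any setting, and no member was DE with the diet in any setting. With the diet, 1 gene passed an adjusted p of 0.05. The count was 3 with library size alone and with length and GC trends removed together (a setting chosen after seeing the data), 2 with the GC trend removed, 0 with all 18 libraries in one fit, in the libraries numbered 55 to 68 and with the length trend removed, and 1 to 2 with each library left out, being 2 without FPC-GFP 11 or 20. With LIPA on the diet, 3 genes passed. The count was 0 with library size alone, with no filter on low counts, in the libraries numbered 55 to 68, with the GC trend or both trends removed and without FPC-LIPA 36, 37 and 39, 4 with the length trend removed, and 0 to 3 with each library left out, being 0 without any one FPC-GFP library or without FPC-LIPA 36, 37 or 39. The DE count there was 0, and 1 with the length trend removed (Hamp, -1.35, adjusted p = 0.0491). In FPC-LIPA against CON-GFP, 5 genes passed, with 7 by DESeq2's Wald test and with all 18 libraries in one fit, 6 with at least 1 CPM in 6 libraries and with the length trend or both trends removed, 2 in the libraries numbered 55 to 68, 3 without FPC-LIPA 36, 37 and 39, and 2 to 6 with each library left out, being 2 without CON-GFP 3, 7 or 8 or FPC-LIPA 36 or 37 and 3 without CON-GFP 1 or 6 or FPC-LIPA 39. The DE count of 1 became 2 with upper-quartile factors, with at least 1 CPM in 6 libraries and in the libraries numbered 55 to 68, and was 1 to 2 with each library left out, being 2 without CON-GFP 1 or 2 or FPC-LIPA 31, 33 or 34. Calls over all genes also moved with the setting. With the diet, 3410 of 14307 genes passed, and 4079 with library size alone. The number was 3566 of 14292 with the length trend removed, 1995 of 14640 in the libraries numbered 55 to 68 and 1352 of 14963 in one fit. With LIPA on the diet, 3102 of 14620 passed, 1438 with library size alone and 104 of 14736 in the libraries numbered 55 to 68. Library size alone shifted the median log2 fold change of all genes by 0.20 with the diet and by -0.13 with LIPA. Between the FPC groups, 2339 of 25543 genes passed with no filter, 3378 of 14604 with the GC trend removed and 2456 of 14604 with both trends removed. With a single FPC-GFP library left out, 1304 to 1926 passed. In FPC-LIPA against CON-GFP, 3304 of 14433 genes passed, 1402 of 14914 in the libraries numbered 55 to 68 and 2720 of 15113 without FPC-LIPA 36, 37 and 39. No paired analysis was possible because mouse numbers are not shared between groups. No separate value was computed for the 4 libraries outside the numbers 55 to 68. Counts compared across genes differed between mice of a group by more than counting error. Counting error was not examined gene by gene. It weighs more where counts are few, as for Bmp6, at 36 to 210 counts per library, and Scara5, at 0.443 CPM in FPC-LIPA.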
